A study of Mus musculus with 20 samples.

Results

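The circadian clock and clock output genes described here are Clock, Arntl, Per1, Per2, Cry1, Nr1d2, Dbp and Tef, in prostates of adult male mice. They were taken as all probe sets that the platform annotation gives to 1 of these 8 gene symbols alone, which yielded 10 probe sets of the 12422 on the array, or 8 genes of 8251. Each of the 8 genes had 1 probe set among the 6913 tested, and the remaining 2 probe sets, both of Cry1, had signals of 0 to 10 on every array. The question asked of them was whether the rise of Dbp after castration was shared by other genes of the clock, as a difference in the hour of killing would give. The labels state no hour of killing for any mouse, so hour and treatment cannot be told apart here.

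There were 4 groups of 5 mice aged 10 to 12 weeks, with 1 array a mouse. The source names give the strain C57/B6 for the sham mice and no strain for the other groups. C3 mice were castrated and killed 3 days later, and C14 mice were castrated and killed 14 days later. C14+T3 mice were castrated, received a 15 mg testosterone pellet at 14 days and were killed 3 days after that. Sham mice had the sham treatment, and they form a single group that serves both castration times and the testosterone group. The labels code it N3 and do not say how long after surgery it was killed, so whether it matches the C3 or the C14 mice in time is not known. Comparisons against sham mice therefore share these 5 arrays, and the comparisons of C14 mice with C3 and with C14+T3 mice share the C14 arrays. No label ties an array to a day of work. The serial numbers in the array titles run in blocks by group, with sham and C3 consecutive and C14 and C14+T3 in separate later blocks. What these numbers stand for is not stated, so group and number block cannot be told apart. Values are MAS5 signals, the summarised brightness of an Affymetrix MG-U74A probe set on a linear scale, and array medians lay between 154 and 224. A signal is compared only with the same probe set's signal in other mice, since signals of different probe sets are not on 1 scale.

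The mammalian clock is a transcriptional loop that runs in almost every tissue. CLOCK and ARNTL (BMAL1) form a dimer that binds E-boxes and activates the Per and Cry genes, the nuclear receptor genes Nr1d1 and Nr1d2, and the output factors Dbp and Tef. PER and CRY proteins repress that dimer, while NR1D1 and NR1D2 repress Arntl, Nfil3 and Cry1 through ROR elements. DBP and TEF activate genes with D-boxes, which NFIL3 represses. In peripheral tissues of the mouse, Dbp, Tef, Nr1d1, Nr1d2 and the Per genes peak in the later light period or around dusk, roughly opposite to Arntl and Nfil3.

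Cell makeup and RNA quality also differed between arrays. The prostate epithelial markers on the array, 6 of 7 listed, were all detected above the filter, so the labelled tissue was present. Their summed signal, weighted to the brightest probe sets, ranged from 37238 to 47182 in C3 mice, 24224 to 28478 in C14 mice and 40117 to 49217 in C14+T3 mice, against 48779 to 59476 in sham mice. The markers did not move together. By the calls defined below, 1 of 6 was lower in C3 than in sham mice and 0 were higher. In C14 relative to sham mice 4 were lower and 1 higher, and in C14+T3 relative to C14 mice 4 were higher and 2 lower. Macrophage markers moved the other way, at 4541 to 5808 in C3 mice and 7995 to 11469 in C14 mice, against 1823 to 2662 in sham mice, and 7 of 7 were lower in C14+T3 than in C14 mice. In such bulk samples fewer cells of a type and less RNA per cell cannot be told apart. On 4 arrays, C14 replicates 4 and 5 and C14+T3 replicates 2 and 5, the log2 ratio of the 3′ to the 5′ Gapdh control probe sets, a sign of RNA quality, was 1.82 to 4.54, against -0.53 to -0.08 on the other 16.

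In C3 mice 4 of the 8 genes rose and 2 fell relative to sham mice. A gene is called changed where limma's Benjamini-Hochberg adjusted p over all 6913 probe sets tested was under 0.05. Per2, Nr1d2, Dbp and Tef were higher and Arntl and Cry1 were lower. Over all probe sets tested 14.3% were called in that comparison, 9.84% higher and 4.46% lower. In C14 mice the same 4 genes were higher than in sham mice and Clock and Arntl were lower, where 52.9% of all probe sets were called, 28.6% higher and 24.3% lower. With testosterone 5 of the 8, Per1, Per2, Nr1d2, Dbp and Tef, were lower than in C14 mice and 0 were higher, against 26.6% of all probe sets called lower and 18.2% called higher, or 44.8% in all. The signals of 6 of the 8 genes did not overlap between C3 and sham mice, against 13.3% of all probe sets. The corresponding counts were 4 of 8 for C14 and sham mice, against 35.0%, and 5 of 8 for C14+T3 and C14 mice, against 30.7%. The share of members called was furthest above the background in the comparison of C3 with sham mice. Their median log2 change was 0.65 in C3 mice relative to sham mice, beside 0.04 over all probe sets. It was 0.42 beside 0.01 in C14 relative to sham mice and -0.97 beside -0.10 in C14+T3 relative to C14 mice. These counts and medians include Dbp, singled out for its rise, and Per2, which passed the filter through C14 mice alone, and are a description. Relative to sham mice, Tef, Nr1d2, Per1, Clock, Arntl and Cry1 stood at 1.12, 0.94, 0.36, -0.15, -0.49 and -0.71 in C3 mice. In C14 mice, in the same order, they stood at 1.15, 0.89, -0.34, -0.33, -0.72 and -0.06.

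**Figure D1:**
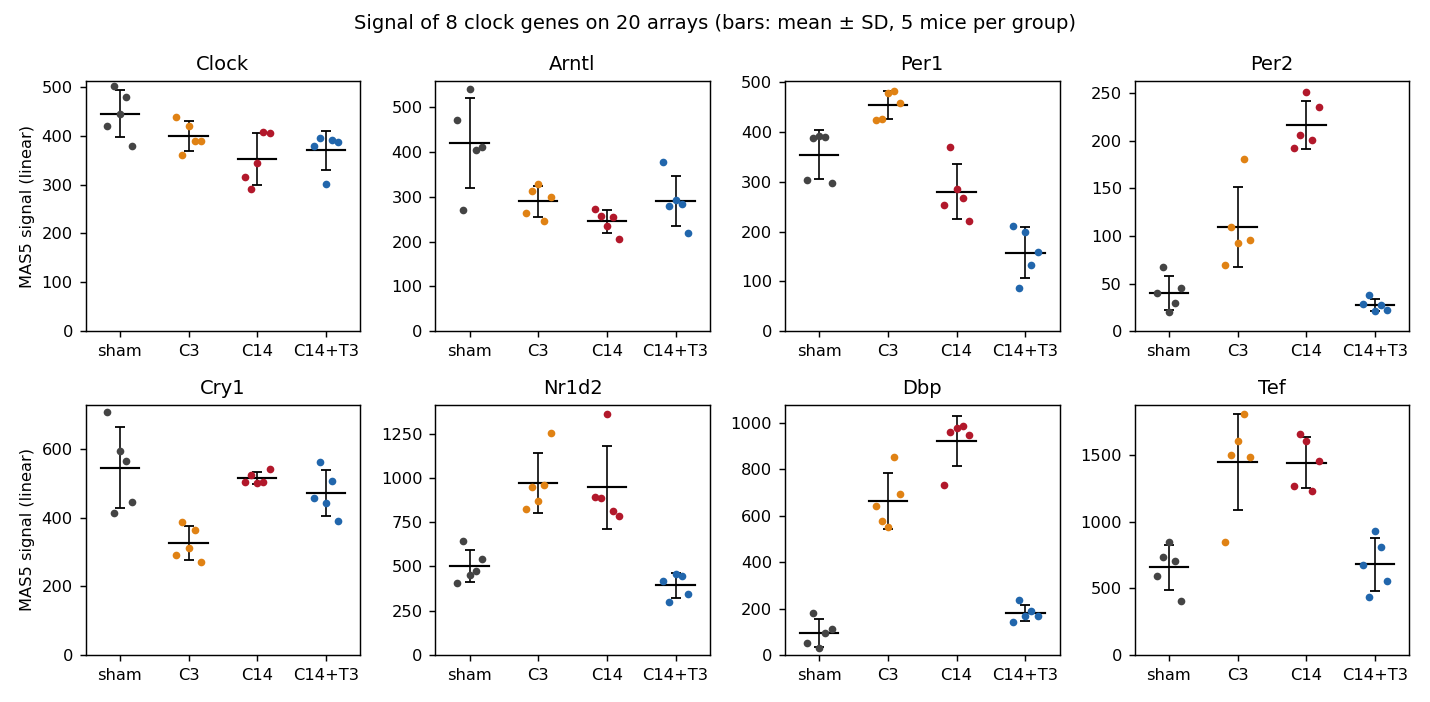
MAS5 signal (linear scale, from 0) of each of the 8 genes on the 20 arrays, with 1 point a mouse, the mean as a horizontal bar and the SD as whiskers (n = 5 a group). Dbp, Tef and Nr1d2 are high in both castrated groups, Per2 is highest in C14 mice, and Arntl is highest in sham mice.

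Of the activators of the loop, Arntl was called lower at both castration times and Clock at 14 days. Arntl, the partner of CLOCK, had signals of 263, 312, 328, 246 and 299.8 in C3 mice and 272, 256, 234, 255 and 206 in C14 mice, against 472, 269, 541, 405 and 411 in sham mice. The sham mouse at 269 lay within the castrated range and the other 4 lay above it, so the groups overlapped through that mouse. The log2 change was -0.49 ± 0.15 (SE, limma adjusted p = 0.0397) in C3 and -0.72 ± 0.15 (adjusted p = 0.000685) in C14 mice relative to sham mice. The C3 call was lost when any single sham mouse except replicate 2, or any single C3 mouse except replicate 3, was left out (adjusted p 0.0535 to 0.114), and also with no filter (0.0646) and with the compared groups fitted alone (0.0679). Testosterone-treated mice had Arntl signals of 377, 279.8, 292, 283 and 219, overlapping the C14 mice, and the change of 0.22 relative to C14 mice was not called (adjusted p = 0.258). Arntl was lower in C14+T3 than in sham mice by the main fit (-0.50, adjusted p = 0.0114), but not when the 4 arrays with a high Gapdh ratio were dropped (-0.37, adjusted p = 0.0952) or with arrays centred on their median (-0.33, adjusted p = 0.0803).

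Clock, whose protein is the partner of ARNTL, had signals of 290.3 to 408 with a median of 344 in C14 mice, against 379.9 to 501 with a median of 444 in sham mice. The change was -0.33 ± 0.11 (limma adjusted p = 0.0151), and the call was lost without C14 replicate 2 (adjusted p = 0.0515). The groups overlapped through C14 replicates 4 and 5, at 408 and 406, which had a high Gapdh ratio. Without the 4 arrays with a high Gapdh ratio the change was -0.47 (limma adjusted p = 0.00261). In C3 mice Clock lay at 360.1 to 438 and was not called relative to sham mice (-0.15, adjusted p = 0.405). The C14+T3 mice, at 300.4 to 396, were not called relative to C14 mice (0.07, adjusted p = 0.61). Npas2, a paralogue that can replace CLOCK, stayed near background in all groups, with mean signals of 9.72 to 15.3.

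RefSeq sequence around the start sites (GRCm38.p6, 250 bases before to 50 after) was available for 7 of the 8 genes in 12 windows. Per2 had no window. It is shown because the textbook loop runs through a few short motifs, printed here in capitals within 30 bases of promoter. The E-box CACGTG was found in 4 windows of 3 members, Tef, Per1 and Cry1, and lies in 7.15% of all 32851 windows (both strands searched, with a palindrome counted in 1 place). The ROR element, searched as TAGGTCA or TGGGTCA on both strands, was found in 1 member window, at an Arntl start, and in 6.45% of all windows. It was also found in the window of Nfil3, whose product opposes DBP and TEF, and the 2 ROR elements are printed after the E-boxes. The E'-box, searched as CACGTT on both strands, was in 1 member window, that of Cry1, and in 4.68% of all windows. Outside the members it was in the windows of Nr1d1 and Cry2. The D-box, searched as TTATGTAA or TTACGTAA, was in 0 of the 12 member windows and 1.06% of all windows, and outside the members in that of Per3. Neither the Dbp nor the Nr1d2 window held any of these motifs. The E-boxes lie upstream of 2 Tef starts, at chr15:81802534-81802563 (+) and chr15:81811264-81811293 (+), a Per1 start at chr11:69098771-69098800 (+) and the Cry1 start at chr10:85185097-85185126 (-). The ROR elements lie just after an Arntl start, at chr7:113207530-113207559 (+), and just before the Nfil3 start, at chr13:52981033-52981062 (-). The Nfil3 element is on the opposite strand, so its capitals are the reverse complement of the letters searched. A match is a run of letters and no measured binding site. Sequence outside these windows was not searched, so a window without a match does not show that a gene lacks the motif.
Tef, start 1: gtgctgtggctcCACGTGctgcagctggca
Tef, start 2: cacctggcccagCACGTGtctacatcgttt
Per1: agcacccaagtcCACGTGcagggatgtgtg
Cry1: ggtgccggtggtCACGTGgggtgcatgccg
Arntl, start 2: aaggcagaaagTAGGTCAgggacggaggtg
Nfil3: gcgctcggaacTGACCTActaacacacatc

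The 3 members with an E-box match in these windows did not move as 1 group. Per1, Cry1 and Tef, printed above, took 3 different courses over the 4 groups, and each is described in turn with its loop partners.

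The repressors Per1, Per2 and Cry1 went separate ways. Per1, whose product represses the CLOCK and ARNTL dimer, had signals of 424, 426, 479, 483 and 458 in C3 mice, against 304, 388, 392, 390.4 and 297 in sham mice. Every C3 mouse lay above every sham mouse, but the difference of 0.36 ± 0.18 was not called (limma adjusted p = 0.202). In C14 mice Per1 lay at 254, 369.6, 285, 268 and 222, below every C3 mouse (-0.69 ± 0.18, adjusted p = 0.00468). In C14+T3 mice it lay at 211, 86, 199.7, 132 and 159, below every C14 mouse (-0.82 ± 0.18, adjusted p = 0.000868) and below every sham mouse (-1.16 ± 0.18, adjusted p = 2.91e-05). Per1 was thus highest in C3 and lowest in C14+T3 mice, and it was the member whose level under testosterone fell furthest below sham.

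Per2, the partner repressor of Per1, rose in steps. Its signals were 70, 109, 92, 181 and 96 in C3 mice and 192, 206, 251, 200.5 and 235 in C14 mice, against 40, 67, 20, 30 and 45 in sham mice. The 3 groups did not overlap, and the log2 change relative to sham mice was 1.21 ± 0.21 (limma adjusted p = 0.00086) in C3 and 2.18 ± 0.21 (adjusted p = 1.01e-07) in C14 mice. In C14+T3 mice Per2 had 29, 38, 22, 28 and 22, again clear of the C14 mice (-2.52 ± 0.21, adjusted p = 2.13e-08) and not called relative to sham mice (-0.34, adjusted p = 0.189). Per2 passed the filter on low signal, above 190.8 on at least 5 arrays, through the C14 mice alone, so that a difference from the other groups was built into its being tested. Since its sham signals are low, its log2 change depends on the constant added before taking logs, and in C14 relative to sham mice it ran between 1.66 and 2.51 over the other constants tried.

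Cry1, which encodes a cryptochrome repressor of the dimer, was low at the early castration time. Its signals in C3 mice were 291, 387, 312, 364 and 269.6, against 706, 414, 595, 566 and 444 in sham mice, with no overlap (-0.71 ± 0.13, limma adjusted p = 0.00143). In C14 mice it was back at 503, 523, 500.3, 504 and 542, above every C3 mouse (0.66 ± 0.13, adjusted p = 0.000837) and within the sham range (-0.06, adjusted p = 0.747). C14+T3 mice had 389 to 562 and were not called relative to C14 mice (-0.13, adjusted p = 0.437). The probe set carries the suffix that Affymetrix gives to sets sharing probes with other transcripts, so its signal may hold other RNA. Per3 and Cry2, paralogues outside the 8 genes, were called in 0 of the 5 comparisons.

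Nr1d2, a haem-binding receptor that represses Arntl, had signals of 826, 949.6, 867, 961 and 1253 in C3 mice and 892, 887, 1360.4, 813 and 784 in C14 mice, against 404, 642, 453, 471 and 539.5 in sham mice. Every castrated mouse lay above every sham mouse, by log2 0.94 ± 0.16 (limma adjusted p = 0.000724) in C3 and 0.89 ± 0.16 (adjusted p = 0.000147) in C14 mice. The castration times did not differ beyond the spread (-0.05, adjusted p = 0.831). C14+T3 mice had 416, 298, 456, 447 and 347, all below the C14 mice (-1.23 ± 0.16, adjusted p = 5.11e-06). Its close relative Nr1d1, from the wider clock list, followed the same course: 1029.5, 1110.1, 992, 1116 and 1469 in C3 mice and 816, 909.6, 883, 1098 and 972 in C14 mice, against 300.5, 618, 411, 414 and 701 in sham mice. Its log2 change relative to sham mice was 1.25 ± 0.17 (adjusted p = 9.46e-05) in C3 and 0.98 ± 0.17 (adjusted p = 0.000123) in C14 mice, and it was lower in C14+T3 than in C14 mice (-1.35 ± 0.17, adjusted p = 4.39e-06).

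Tef, a PAR bZIP activator of D-box genes, had signals of 848, 1502, 1605, 1809 and 1485 in C3 mice and 1269.5, 1663, 1604, 1229.9 and 1458 in C14 mice, against 590.5, 739.6, 846, 702 and 407 in sham mice. The lowest C3 mouse, at 848, sat just above the highest sham mouse, at 846, and the other castrated mice lay well clear. The log2 change relative to sham mice was 1.12 ± 0.22 (limma adjusted p = 0.00203) in C3 and 1.15 ± 0.22 (adjusted p = 0.000245) in C14 mice, or 2.18-fold and 2.22-fold. C14+T3 mice had 675, 432, 933, 808 and 556, below every C14 mouse (-1.11 ± 0.22, adjusted p = 0.000428) and not called relative to sham mice (0.04, adjusted p = 0.888).

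Dbp, the other PAR bZIP factor of the list and the gene that prompted the question, had signals of 642, 578, 552, 852 and 693 in C3 mice and 734, 962, 978, 988 and 949.8 in C14 mice, against 51, 182, 30, 95 and 111 in sham mice. All castrated mice lay far above all sham mice, by log2 2.84 ± 0.28 in C3 mice (7.17-fold) and 3.32 ± 0.28 in C14 mice (9.97-fold), and these values are a description, since Dbp was singled out for them. The C14 mice did not differ from the C3 mice beyond the spread (0.48, limma adjusted p = 0.178). In C14+T3 mice Dbp had 142, 235, 167, 191 and 168, below every C14 mouse (-2.28 ± 0.28). These mice stayed higher than sham mice by 1.03 ± 0.28, although the groups overlapped through the sham mouse at 182. Both comparisons reuse arrays for which Dbp was singled out, so they too are a description. With 0 sham arrays above the filter, a difference from sham mice was also built into the testing of Dbp. Since sham signals were low, the C3 value ran between 2.46 and 3.05 over the other constants added before logs.

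Since Dbp was chosen for the size of its rise, its size beside the other members is a description. On each array the log2 signal of another member was taken from that of Dbp, and the difference of Dbp minus Tef was higher by 1.72 in C3 and by 2.16 in C14 mice relative to sham mice. The corresponding values were 1.90 and 2.43 for Dbp minus Nr1d2 and 1.63 and 1.14 for Dbp minus Per2. Under testosterone, relative to C14 mice, Dbp minus Tef was -1.17 on the log2 scale, and for Nr1d2 and Per2 the difference overlapped between the groups. Over all 7 other members these differences ran between 1.63 and 3.55 in C3 and between 1.14 and 4.04 in C14 mice relative to sham mice.

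**Figure D2:**
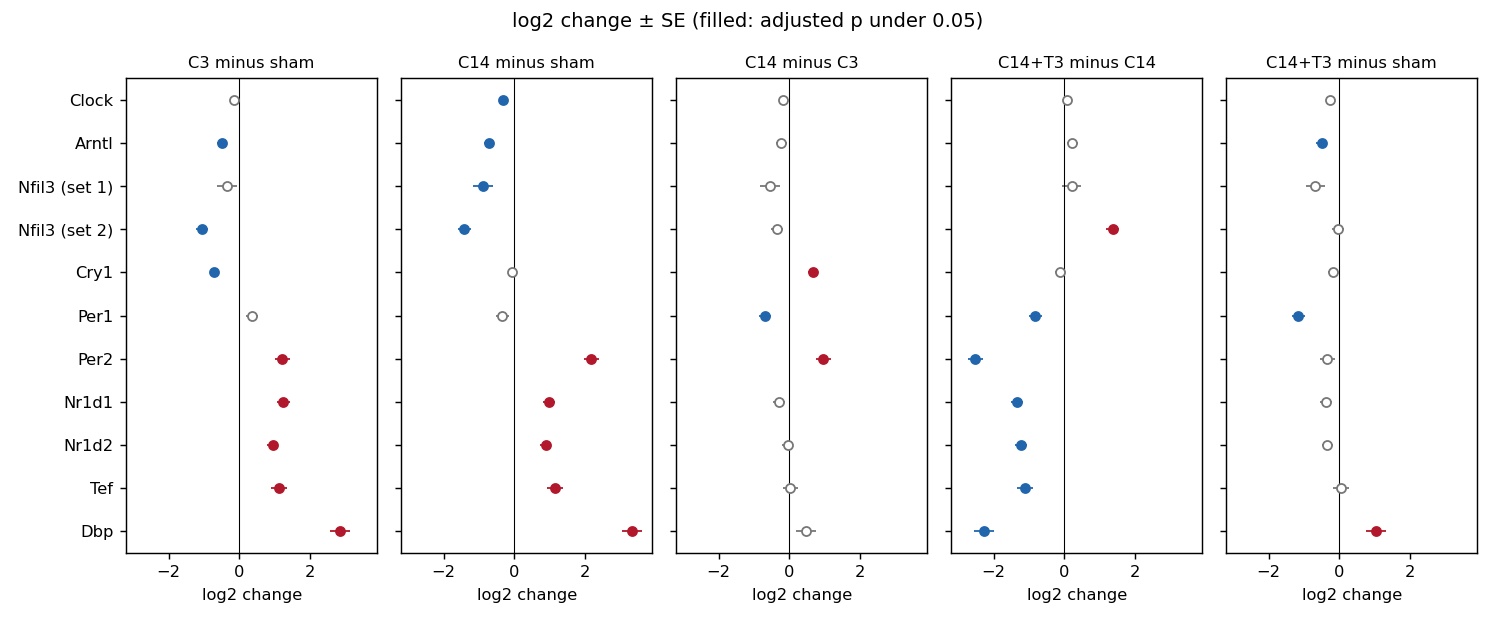
log2 change ± SE (horizontal axis, first group minus second) of the 8 genes and of Nr1d1 and both probe sets of Nfil3 in the 5 comparisons, with filled points where the limma adjusted p was under 0.05. Dbp, Tef, Nr1d1, Nr1d2 and Per2 lie right of 0 in both castration panels and left of 0 in the panel of C14+T3 minus C14, with Arntl and Nfil3 on the other side in the castration panels.

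Nfil3, the repressor at D-boxes, is read by more than 1 probe set, and these disagreed. The set of highest mean, which shares probes with other transcripts by its suffix, was called lower in C14 mice relative to sham mice (-0.88 ± 0.28, limma adjusted p = 0.0142) and in none of the other comparisons. This call was lost without the 4 arrays with a high Gapdh ratio (-0.68, adjusted p = 0.0759). Its other set had 60, 103, 88, 98 and 81 in C3 mice and 65, 72, 89, 41 and 58 in C14 mice, against 203, 137, 251, 143 and 239 in sham mice. Every castrated mouse lay below every sham mouse on that set, and all C14+T3 mice, at 192, 155, 214, 198 and 161, lay above every C14 mouse. That set passed the filter through sham and C14+T3 mice alone, so these differences were built into its being tested. The set of highest mean also had 0 C14 arrays above the filter, which favours a difference between sham and C14 mice.

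Of a wider list of 44 other clock genes, 30 were on the array and 26 were tested. In C3 mice 5 of 26 were higher than in sham mice and 1 lower, against 9.84% of all probe sets called higher and 4.46% lower. In C14 mice 9 were higher and 3 lower than in sham mice, against 28.6% and 24.3%. In C14+T3 mice 2 were higher and 11 lower than in C14 mice, against 18.2% and 26.6%. Relative to sham mice, 6 were higher and 9 lower in C14+T3 mice, against 23.5% and 29.5%. Set against the 52.9%, 44.8% and 53.0% of all probe sets called in the last 3 of these comparisons, 12, 13 and 15 of 26 are near the background.

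Bhlhe40, a bHLH repressor that binds E-boxes, took a course like that of Per2 after castration. It had 218, 181, 181, 219.6 and 306 in C3 mice and 615, 560.4, 878, 565 and 435 in C14 mice, against 78, 67, 137, 82 and 86 in sham mice. The log2 change relative to sham mice was 1.19 ± 0.18 (limma adjusted p = 0.000236) in C3 and 2.60 ± 0.18 (adjusted p = 1.35e-09) in C14 mice. With 0 sham arrays above the filter, a difference from sham mice was built into the testing of Bhlhe40. It was lower with testosterone than in C14 mice (-1.38, adjusted p = 5.47e-06) and remained higher than in sham mice (1.22, adjusted p = 2.23e-05). Among output genes, Cirbp, a cold-inducible RNA-binding protein, and Wee1, a kinase that delays entry into mitosis, were higher in C3 than in sham mice (0.63 and 0.60, limma adjusted p = 0.0108 and 0.0296), with overlapping groups. The Wee1 call was lost without sham replicate 1, 3 or 5 or C3 replicate 2, 4 or 5 (adjusted p 0.0536 to 0.0817). Both were lower in C14+T3 than in C14 mice (-1.06 and -0.99, adjusted p = 1.99e-05 and 0.000164).

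Rora, the receptor that activates Arntl at the elements NR1D1 and NR1D2 use, behaved otherwise. It had 214, 172, 176, 168 and 172 in C14+T3 mice, against 382, 429, 421, 436 and 287 in C14 mice (-1.05 ± 0.15, limma adjusted p = 1.17e-05), and it was called in neither castrated group relative to sham mice. Usp2, a clock-controlled deubiquitinase, was higher in C14 than in C3 mice by 1.66 (adjusted p = 0.00115), and Csnk1e, a kinase that marks PER proteins for breakdown, by 0.73 (adjusted p = 0.0215). Timeless and Nampt were the 2 genes of the list called higher in C14+T3 than in C14 mice, by 0.85 (adjusted p = 0.00177) and 0.60 (adjusted p = 9.82e-05). Nampt encodes the enzyme that limits NAD salvage. The other genes of the list with a call were Klf9, Klf10, Id2, Alas1, Nono, Cipc, Hdac3, Btrc, Nr1i3, Ppara, Pdxk and Noct, with log2 changes between -1.03 and 0.77. Further calls of genes already named included those of Csnk1e in C14 relative to sham mice (1.02) and in C14+T3 relative to C14 mice (-1.27), Usp2 in C14 relative to sham mice (1.03, lost without sham replicate 2 at 0.79 and adjusted p = 0.0656), and Timeless (1.30), Rora (-1.28), Wee1 (-0.90) and Nampt (0.62) in C14+T3 relative to sham mice.

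**Figure D3:**
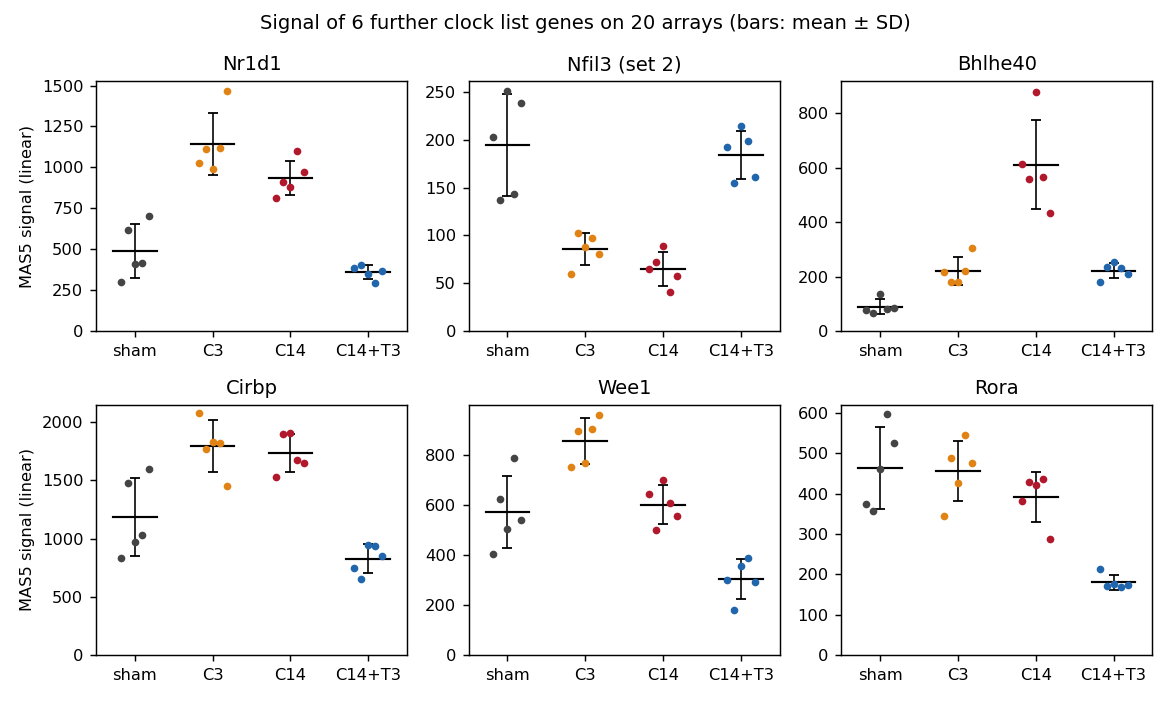
MAS5 signal (linear scale, from 0) of Nr1d1, the second probe set of Nfil3, Bhlhe40, Cirbp, Wee1 and Rora on the 20 arrays, with 1 point a mouse and bars for mean and SD (n = 5 a group). Nr1d1 is high and Nfil3 low in both castrated groups, and Rora is lowest in C14+T3 mice.

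In the comparison of C14 with C3 mice 2 of the 8 genes were higher, Per2 and Cry1, and 1 lower, Per1, where 20.2% of all probe sets were called higher and 20.4% lower, or 40.5% in all, and 3 of 8 did not overlap, against 32.4%. In that of C14+T3 with sham mice 1 was higher, Dbp, and 2 were lower, Arntl and Per1, where 23.5% were called higher and 29.5% lower, or 53.0% in all, and 1 of 8 did not overlap, against 31.4%. Neither count stands above the background. Dbp was singled out for its rise and Per2 passed the filter through C14 mice alone. Without them, 2 of the 6 others were higher and 2 lower in C3 relative to sham mice, where 14.3% of all probe sets were called. In C14 relative to sham mice 2 of 6 were higher and 2 lower, where 52.9% were called, and 2 of 6 did not overlap, against 35.0%. In C14+T3 relative to C14 mice 3 of 6 were lower, where 26.6% were called lower.

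Mice within a group also differed in ways shared between genes. Group means were removed from the log2 signals and Dbp was correlated with each of the 7 other members over the 20 arrays (permutation test within groups, two-sided, 100000 resamples). Arntl ran opposite to Dbp, with Pearson's r = -0.77 (p = 0.00136, 0.00952 adjusted over the 7 relations) and Spearman's rho = -0.68 (p = 0.00506, adjusted 0.0354). Without the 2 arrays farthest from the median of Dbp, sham replicates 2 and 3, r was -0.53 (permutation p = 0.0223). The sham mice show it most plainly: ordered by Dbp signals of 30, 51, 95, 111 and 182, they had Arntl signals of 541, 472, 405, 411 and 269. Per2 ran with Dbp (r = 0.71, p = 0.00534, adjusted 0.0187), but its rho of 0.53 did not pass adjustment (0.167) and without those 2 arrays r was 0.43 (p = 0.0946), so that relation rests on them. For the other 5 members the adjusted p of r was 0.388 to 0.591, and Tef, which moved with Dbp between groups, had r = -0.17 within them. The correlations were not repeated without the 4 arrays with a high Gapdh ratio. On 1 of these, C14+T3 replicate 2, Tef deviated by -0.59 and Per1 by -0.73 from the group mean, with Dbp at 0.38.

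**Figure D4:**
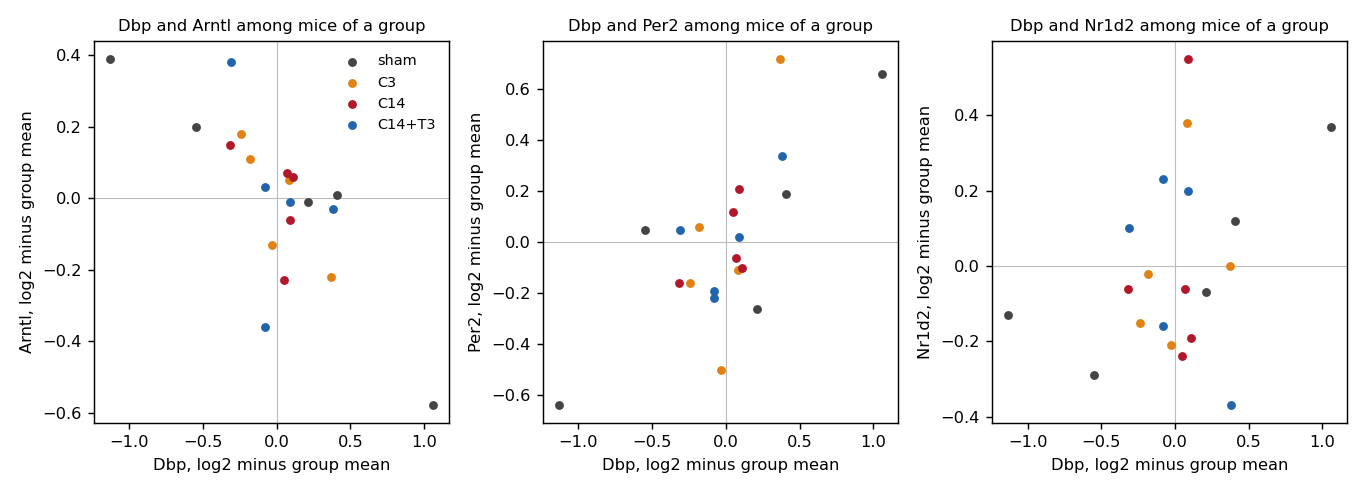
log2 signal minus the group mean of Arntl, Per2 and Nr1d2 (vertical axes) against that of Dbp (horizontal axes), 1 point a mouse, coloured by group. Arntl falls as Dbp rises (r = -0.77), with the sham mice at both ends.

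Over all 20 arrays, group differences included, the log2 signal of Dbp was compared with that of 5300 genes, as a description with no test, since the points share groups. Outside the clock lists and the cell type marker lists the highest Pearson's r were those of Hfe (0.933), Rab34 (0.918), Idh1 (0.911), Frrs1 (0.909) and Timp3 (0.905). The lowest were those of P4ha2 (-0.927), Mlx (-0.889), Cdo1 (-0.887), Mars1 (-0.886) and Lct (-0.879). Of the clock genes, Per2 reached 0.883, Nr1d1 0.825, Nr1d2 0.801, Tef 0.764 and Arntl -0.778, while Per1 was at 0.193. At least 5 genes outside the clock lists followed Dbp more closely than any of the clock genes compared. Those were the other members, Nr1d1, Nfil3 and Bhlhe40. Idh1, the cytosolic isocitrate dehydrogenase, averaged 1937 in C3, 2427 in C14 and 994 in C14+T3 mice, against 888 in sham mice. Cdo1, cysteine dioxygenase, averaged 1667 in C3, 1306 in C14 and 7464 in C14+T3 mice, against 6663 in sham mice.

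Summed markers of other cells differed between these groups, but in some lists the markers did not move together. Beside the macrophage list, the summed adipocyte markers (3 tested of 5 listed) lay at 3231 to 7196 in C14 mice, against 327 to 1429 in sham mice, and at 476 to 2413 in C3 mice. Of the adipocyte markers, 2 were called higher in C14 than in sham mice and 0 were called in C3 relative to sham mice. Skeletal muscle markers lay at 2110 to 4564 in C3 mice, against 3932 to 14874 in sham mice, and at 2534 to 20444 in C14 mice. Of these 7, 1 was called lower in C3 and 0 were called in C14 relative to sham mice. Summed smooth muscle markers were lower in C14 mice (15242 to 19349, against 23120 to 25302 in sham mice) and higher in C14+T3 than in C14 mice (24661 to 29050). Of the 5, 3 were called lower in C14 than in sham mice and 4 higher in C14+T3 than in C14 mice. Fibroblast markers were at 15956 to 19484 in C3 and 16920 to 22929 in C14 mice, against 12255 to 13672 in sham mice. Of these 5, 3 were called higher in C3 and 3 in C14 than in sham mice. In C14+T3 relative to C14 mice 2 fibroblast markers were higher and 2 lower. Seminal vesicle markers lay at 3169 to 32149 in C14 mice, against 49365 to 61970 in sham mice. No marker of these lists was at 0, and the part of these cells in the results was not tested. With the 4 arrays that had a high Gapdh ratio left out, Clock joined the members called lower in C14 relative to C3 mice (-0.32, limma adjusted p = 0.0352). In C14+T3 relative to sham mice Clock gained a call (-0.31, adjusted p = 0.0321) and Arntl lost its own.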

How the data were processed

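Total RNA of 20 prostates was hybridised singly to Affymetrix MG-U74A arrays. The deposited values are MAS5 intensity signals, linear and not logged, made with MAS5 version 5.0 per the submitters' processing notes; their scaling target is not given in the sources used here. Of 12488 probe sets, 66 controls were left out. Signals were taken as log2(signal + 12.7), the 10th percentile of all values, and probe sets above 190.8 (the median) on at least 5 of 20 arrays were tested, 6913 in all. limma 3.58.1 in R 4.3.3 (lmFit, contrasts.fit, eBayes) was run over all 4 groups with 5 contrasts, with Benjamini-Hochberg adjustment and a threshold of 0.05, two-sided. A gene was called by its probe set of highest mean. The fit was tested on simulated data. Named were every member, each clock list gene called in at least 1 contrast, and, outside the clock and marker lists, the 5 genes most and least like Dbp. The members and lists were chosen with earlier results of these data known. No label says whether mice were processed together, and the serial numbers of the arrays follow the groups. The p-values therefore measure the spread between these 20 samples, whose number limits the precision, and cannot separate group from number block. Alternatives were other constants, filters, scalings, array weights, fits of only the compared groups, other probe sets, and leaving out arrays. Promoter windows and coordinates are from RefSeq on GRCm38.p6.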

Additional observations from a re-analysis of the deposited data

Results flagged for a closer look

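In each group of 5 mice the highest or lowest signal was looked at for a gap to the nearest other mouse that took up most of the group's range (Dixon's 95% criterion). Chance flags about 1 in 20 groups, and 11 of 136 stood out over the clock genes tested, 3 of the 32 that concern the 8 members. Of the members, Dbp was 733.8 in C14 replicate 1, below 949.8 to 988.5 in the other C14 mice. Nr1d2 was 1360.4 in C14 replicate 3, above 783.8 to 892.3. Clock was 300.4 in C14+T3 replicate 3, below 378.2 to 396.0.

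C14 replicate 3 stood out in 4 of the 11, since beside Nr1d2 it had 283.0 for Btrc (others 178.3 to 207.4), 340.5 for Cry2 (97.3 to 127.1) and 676.8 for Nampt (510.2 to 557.8). In sham mice Bhlhe40 was 137.1 in replicate 3 (others 67.0 to 86.5) and Nr1i3 was 191.0 in replicate 1 (369.4 to 438.2). Nr1d1 was 1468.7 in C3 replicate 5 (992.0 to 1115.5). In C14+T3 mice Per3 was 148.7 in replicate 2 (201.3 to 219.1) and Rora was 213.8 in replicate 1 (168.3 to 176.4).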

How the results depend on the processing

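No paired analysis was possible because the labels give no replicate numbers that pair mice across groups. Over 40 results on the members (8 genes in 5 comparisons), each under up to 29 alternatives, 1114 of 1155 values kept direction and side of the threshold, 13 lost a call and 16 gained one. A further 12, called in neither setting, changed sign, in Cry1 (C14 against sham, to 0.04, and C14+T3 against C14, to 0.06 with centred arrays), Nr1d2 (C14 against C3, to at most 0.09), Tef (C14 against C3, to -0.15, and C14+T3 against sham, to -0.12) and Per2 (C14+T3 against sham, to 0.05 with quantile normalization). The number of members called ran from 5 to 6 (C3 against sham), 5 to 7 (C14 against sham), 3 to 3 (C14 against C3), 5 to 5 (C14+T3 against C14) and 3 to 4 (C14+T3 against sham) when 1 array was left out. Dbp's log2 change then ran from 2.56 to 3.11, 3.04 to 3.58, 0.42 to 0.57, -2.38 to -2.21 and 0.75 to 1.30 in the same order. With the compared groups fitted alone, Dbp in C14 relative to C3 mice became a call (0.48, adjusted p = 0.0112). Per1 in C3 relative to sham mice did so too (adjusted p = 0.0426), and with quantile normalization Arntl was called higher in C14+T3 than in C14 mice (0.39, adjusted p = 0.0471). Centring arrays moved the median of all genes in C14+T3 relative to C14 mice to 0.09, against -0.10 by the main scaling, and turned the split of all calls to 1827 higher and 1024 lower, against 1259 and 1840. The members' split was then 1 higher, Arntl (0.42, adjusted p = 0.034), and 5 lower. In C14+T3 relative to sham mice that split became 2026 and 1206, against 1624 and 2041. Read by its other probe set, Noct turned to 0.87 in C14 relative to sham, 0.70 in C14 relative to C3 and 0.75 in C14+T3 relative to sham mice, and Nono to -0.05 in C14+T3 relative to sham mice. The causes were not tested. Arrays have no counts, so depth is unknown; signals near the constant of 12.7, such as Per2 in sham mice, limit its log2 changes.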
